A study of Mus musculus with 7 samples.

Results

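Imprinted genes are expressed mainly or only from the allele inherited from 1 parent, and 42 of them were examined among the 21899 genes counted in mouse pancreatic islets. They were chosen by name, as genes whose imprinting in the mouse is well known, and all 42 had a row in both count files. Islets came from second-generation (F2) males of C57BL/6J wild-type background. In the AE line (androgen-exposed, labelled hyperandrogenism), the founder dam was given dihydrotestosterone late in pregnancy, whereas the control dam received vehicle, and the F1 sons of both lines were mated with wild-type females that had not been exposed. The AE-F2 males were therefore not themselves exposed as fetuses and are related to the treated dam only through their father. Their fathers were in the womb during the treatment, and so were the germ cells of their fathers. Islets were isolated by collagenase digestion, separated on a gradient and picked by hand. The age of these males at islet collection is not given in the sources used here. The labels name 3 control-F2 and 4 AE-F2 samples, of which control-F2 replicate 1 and AE-F2 replicate 4 were used and the other 5 were not analysed here. With 1 library per group there is no replicate check and no test between the groups, so that all differences below are between these 2 libraries and not between the lines.

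At most imprinted loci, a stretch of CpG-rich DNA is methylated in the germline of only 1 parent, and this mark is kept through the erasure of methylation that follows fertilisation. The mark decides which allele is read, either directly at a promoter or through an insulator or a long noncoding RNA that acts on neighbouring genes, so imprinted genes lie in domains with members of both parental kinds. Many of the paternally expressed genes favour growth of the fetus and many of the maternally expressed ones restrain it, and in the islet several of them bear on β-cell number and insulin release. Of the 42 genes, 22 are paternally expressed, 18 are maternally expressed, and 2 (Gnas and Ddc) are expressed from both alleles or by transcript and tissue. These classes come from general knowledge of the mouse. By the same knowledge, imprinting of many maternally expressed members is limited to some tissues or transcripts. Only 2 of the 18 maternal members are free of such a limit, against 19 of the 22 paternal ones. The counts sum both alleles of a gene, so the allele that was read was not measured.

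Control regions of imprinted genes are CpG-rich as a rule. The promoters of the members were examined here, and these need not be control regions. RefSeq promoter windows (GRCm38.p6, 250 bases before and 50 after a start) were given for 33 of the 42 genes, with 52 windows in all, and none was given for Cdkn1c, Peg10, Sgce, Impact, Rtl1, Kcnk9, Kcnq1, Nap1l4 and Trappc9. The median window of the members held 15.5 CpGs, and the median of all 32851 windows held 7. The observed over expected CpG ratio was above 0.6 in 29 member windows, or 55.8%, and in 35.8% of all windows. By class, it was above 0.6 in 43.3% of the 30 paternal windows and 75% of the 16 maternal windows. The hexamer TGCCGC, the core of the site bound by ZFP57 when methylated, was searched on both strands. It was present in 12 of the 52 member windows, 23.1%, and in 11.6% of all windows. Zdbf2 held 3 copies in the window of its upstream start, Mest held 2 copies in each of 2 windows that overlap, both counted above, Calcr held 2 in 1 window, and Peg3, Usp29 and Rasgrf1 held none. The hexamer itself holds a CpG, and the higher CpG content of the member windows was not allowed for in this comparison. A match is a description of the letters and not a site of binding.

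The stretches just before the starts of Peg3, Rasgrf1 and Mcts2 are printed below in lower case with each CpG in capitals, since these 3 paternally expressed genes had lower values in AE-F2. Parts inside annotated exons were left out, and the Peg3 stretch is the gap between the starts of Peg3 and Usp29, which are read in opposite directions.
Peg3 (chr7:6730432-6730577, minus strand): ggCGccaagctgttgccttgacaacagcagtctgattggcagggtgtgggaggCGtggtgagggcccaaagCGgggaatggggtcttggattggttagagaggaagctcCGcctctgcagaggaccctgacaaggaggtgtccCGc
Rasgrf1 (chr9:89909525-89909774, plus strand): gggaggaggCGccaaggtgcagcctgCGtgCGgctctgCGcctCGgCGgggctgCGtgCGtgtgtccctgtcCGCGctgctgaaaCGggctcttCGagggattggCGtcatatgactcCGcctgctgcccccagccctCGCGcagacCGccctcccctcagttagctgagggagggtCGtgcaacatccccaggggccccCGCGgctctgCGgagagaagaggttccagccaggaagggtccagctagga
Mcts2 (chr2:152686898-152687034, plus strand): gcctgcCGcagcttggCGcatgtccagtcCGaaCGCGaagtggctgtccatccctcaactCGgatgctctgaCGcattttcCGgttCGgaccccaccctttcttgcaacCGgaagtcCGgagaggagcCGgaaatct
The printed stretch of Peg3 held 5 CpGs in 146 bases, that of Rasgrf1 held 21 in 250 bases, and that of Mcts2 held 12 in 137 bases. The full 300-base window of Mcts2 had an observed over expected CpG ratio of 0.99, that of Rasgrf1 0.75 and that of Peg3 0.46.

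The control-F2 library held 16285888 counts and the AE-F2 library 21278513. The 42 imprinted genes took 0.483% of the counts in control-F2 and 0.472% in AE-F2. Most of this came from 2 genes, since Peg3 and Gnas together held 56.4% of the members' counts in control-F2 and 56.0% in AE-F2. Levels were compared between genes as CPM (counts scaled to library depth) per kilobase of merged exons, and the order of genes depends on this choice of length. Gnas, which encodes the stimulatory G protein subunit that couples hormone receptors to adenylate cyclase, had a level of 121 in control-F2 and 127 in AE-F2. Peg3, a zinc finger protein, followed with 102 and 92.1. The amino acid transporter Slc38a4 had levels of 82.4 and 80.6, and Ddc, the decarboxylase that makes dopamine and serotonin, had 75.3 and 79.2. These 4 genes each stood above at least 97.3% of the genes kept. The next levels were those of Tssc4 (45.4 and 42.6), Snrpn (32.5 and 30.2), a core protein of spliceosomal particles, and the nucleosome assembly protein Nap1l4 (26.5 and 29.3). Nnat, a small endoplasmic reticulum protein that aids insulin processing in β-cells, had levels of 13.9 and 13.8, and the growth factor Igf2 had 1.91 and 1.72. Ascl2, Phlda2 and Dio3 had no counts in either library, which at 3 counts allows up to 0.184 CPM in control-F2 and 0.141 in AE-F2. Calcr had 0 and 1 counts, Magel2 had 1 and 3, Mkrn3 had 3 and 3, and Sfmbt2 had 2 and 7.

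**Figure D1:**
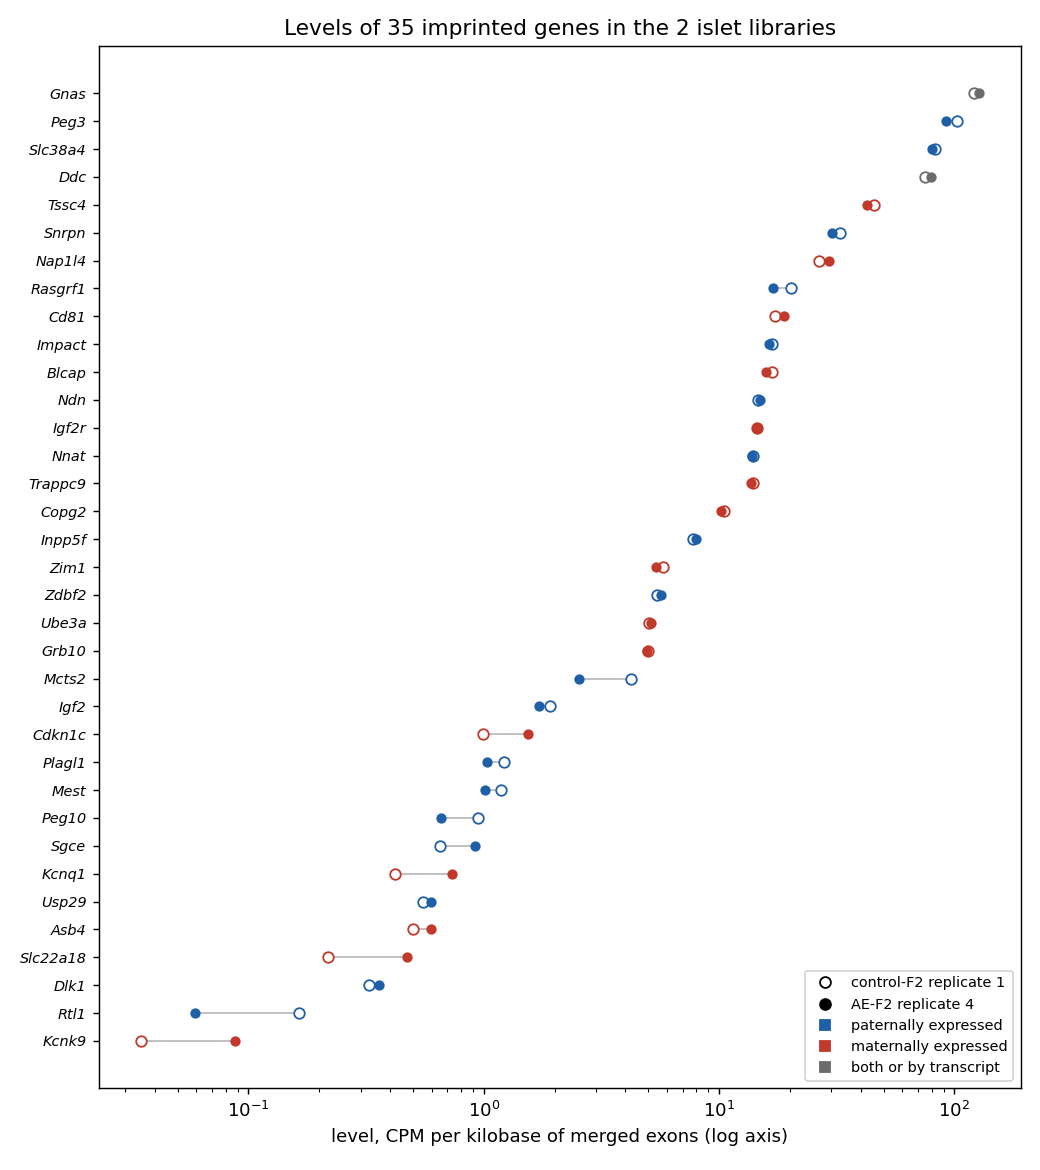
Level of the 35 imprinted genes averaging at least 10 counts, in CPM per kilobase of merged exons on a log axis, with open circles for the control-F2 library, filled circles for the AE-F2 library and colours for the parental class. Gnas is at the top with 121 and 127 and Kcnk9 is at the bottom with 0.0349 and 0.0880, and the circles of Igf2r, Nnat and Grb10 nearly coincide while those of Rtl1 and Kcnk9 lie far apart.

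Of the 42 genes, 35 had a mean of at least 10 counts, the minimum for a ratio. Log2 ratios (AE-F2 over control-F2) used scaled counts plus 0.5, with an interval of 95% that covers counting error only. The median log2 ratio of the 35 genes was -0.01, against -0.0009 over the 13627 genes kept, and their median absolute log2 ratio was 0.11, against 0.12. In the AE-F2 library 16 were higher and 19 were lower. Kcnk9 and Slc22a18 were at least 2-fold higher, and 3.18% of all genes kept were. Rtl1 was at least 2-fold lower, and 0.653% of all genes kept were. All 3 had fewer than 10 counts in 1 library and passed the minimum only through the library where they were high, so these 2-fold counts support nothing about the members. The count of 2 higher fell to 0 with a pseudocount of 5, and both counts fell to 0 at a minimum mean of 50. The interval lay above equality for 8 members and below it for 5, and it did so for 13.2% and 13.7% of all genes kept. For the other 22 it included equality, so that no difference was detectable at this depth. Since Kcnk9 is among the 8 and Rtl1 among the 5, nothing is read from these counts against the background.

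**Figure D2:**
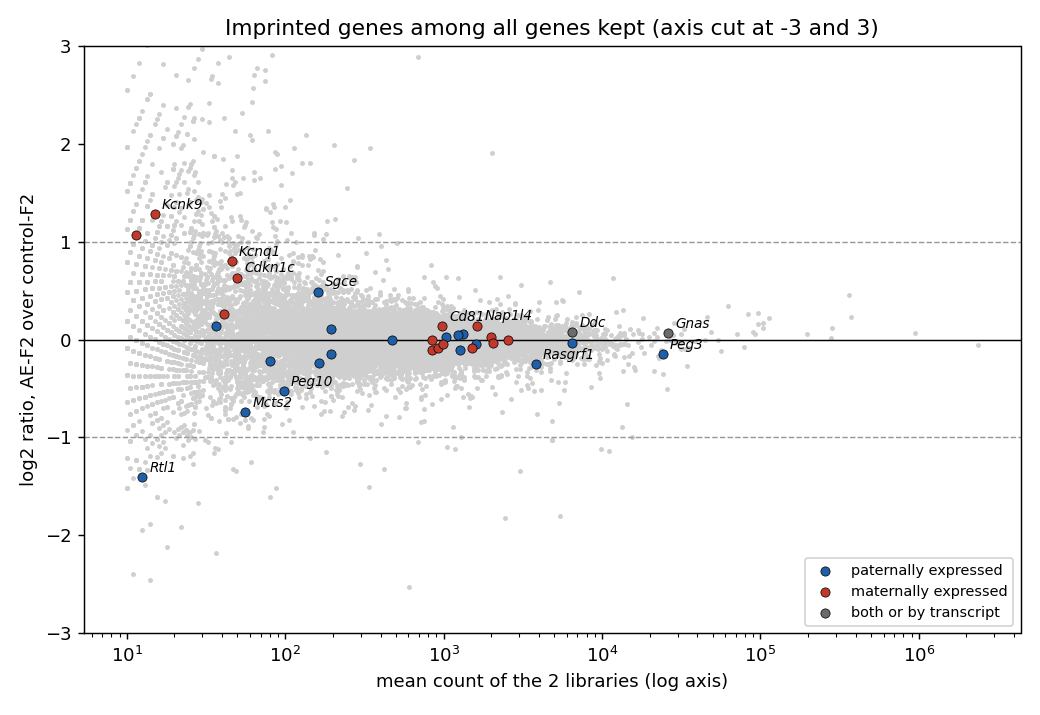
Log2 ratio (AE-F2 over control-F2, vertical axis, cut at -3 and 3) against the mean count of both libraries (log axis) for the 13627 genes kept (grey) and the 35 imprinted genes (coloured by parental class). Names mark the 13 genes whose counting interval lies off 0, and the 3 genes beyond the dashed 2-fold lines (Kcnk9, Slc22a18 and Rtl1) all have mean counts below 20.

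By parental class, the 18 paternally expressed genes kept had a median log2 ratio of -0.07, with 6 higher and 12 lower, and the 15 maternally expressed genes kept had a median of 0.03, with 8 higher and 7 lower. The difference of the medians, paternal minus maternal, was -0.10 on the log2 scale. It was -0.07 at a minimum mean of 50 counts and -0.39 without members of limited imprinting, where only 2 maternal genes remained. The members with an interval below equality were Peg3, Rasgrf1, Peg10, Mcts2 and Rtl1, which are paternally expressed. Of the 8 with an interval above equality, Sgce was paternally expressed, Cdkn1c, Kcnk9, Kcnq1, Cd81 and Nap1l4 were maternally expressed, and Gnas and Ddc belonged to neither class. These lists and the class medians include Rtl1 (paternal) and Kcnk9 and Slc22a18 (maternal), which were kept only through their higher library, and they are given as a description that supports no contrast of the classes. The summed counts of the paternal class were 38510 in control-F2 and 46316 in AE-F2, a log2 ratio of -0.12 (interval -0.14 to -0.10) that rests mainly on Peg3. The summed counts of the maternal class were 12526 and 16416, a log2 ratio of 0.01 (interval -0.03 to 0.04). Whether the medians of the 2 classes differ beyond the spread between animals could not be tested.

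Genes of few counts, Rtl1, Kcnk9 and Slc22a18 among them, are also described apart, with nothing supported by their counts or medians. With a mean of 10 to 100 counts, the 5 paternal members had a median of -0.53 with 4 lower, and the 5 maternal members had a median of 0.80 with all 5 higher. All 3087 genes in this range had a median of 0.16, with 38.4% lower. Of these 10 members, 2 were at least 2-fold higher against 13.1% of all genes in the range, and 1 was at least 2-fold lower against 2.27%. Their intervals lay above equality for 3 (17.3% of all genes in the range) and below it for 3 (4.31%). At means of 100 counts or more, none of the 25 members was 2-fold higher or lower, against 0.285% and 0.18% of the 10540 genes, and the class medians were -0.03 (13 paternal genes) and -0.02 (10 maternal genes). At means of 1000 counts or more, 3 of 15 members had intervals above equality (Gnas, Ddc and Nap1l4) and 2 below (Peg3 and Rasgrf1), against 16% and 25.5% of the 3471 genes.

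**Figure D3:**
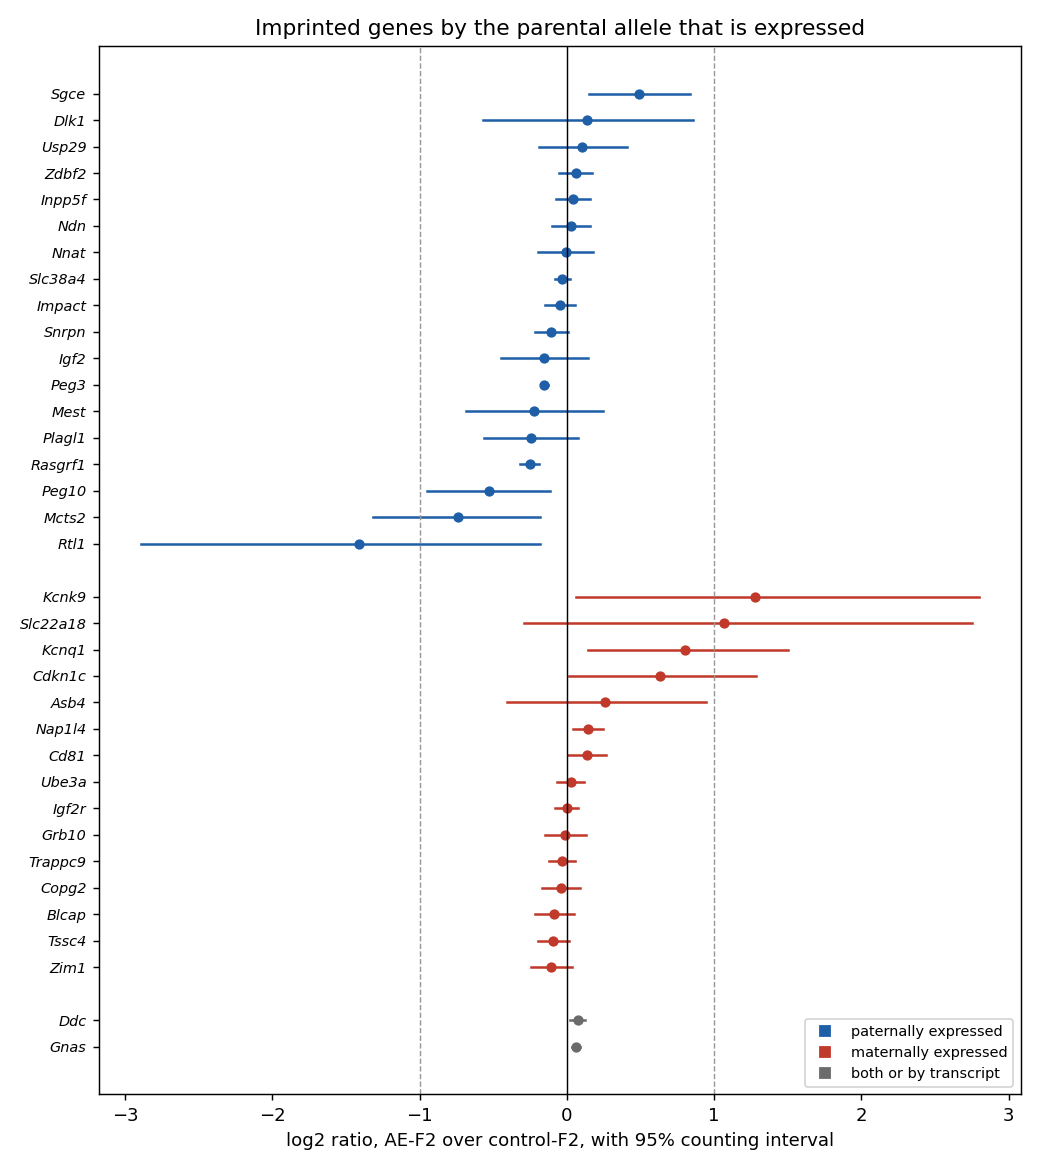
Log2 ratios (AE-F2 over control-F2, points) with its 95% counting interval (lines) for 18 paternally expressed genes (blue), 15 maternally expressed genes (red) and 2 genes of both kinds (grey). Dashed lines mark 2-fold, and the widest intervals are those of Rtl1, Kcnk9 and Slc22a18, which passed the minimum count only through their higher library.

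Igf2, Igf2r, Grb10, Plagl1 and Dlk1, which bear on growth, had intervals that included equality. Igf2 had 178 counts in control-F2 and 209 in AE-F2, a log2 ratio of -0.15 (interval -0.45 to 0.14). Igf2r, the maternally expressed receptor that clears IGF2, had 2203 and 2871 counts and a log2 ratio of 0.00 (interval -0.08 to 0.08). Grb10, an adaptor that dampens signalling of the insulin and IGF1 receptors, had 735 and 953 counts and a log2 ratio of -0.01 (interval -0.15 to 0.13). For Igf2r and Grb10 a change of 1.5-fold lies outside the interval. Plagl1, a zinc finger transcription factor, had 156 and 172 counts and a log2 ratio of -0.24 (interval -0.56 to 0.08). Dlk1, a membrane protein of the Notch ligand family, had 30 and 43 counts and a log2 ratio of 0.13 (interval -0.57 to 0.86). Of the exons of Igf2, 62.8% are shared with the overlapping gene model Gm49394, which was given 0 and 8.68 counts, so a small part of the Igf2 reads may have been assigned there.

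The IGF axis around them, 13 genes that are not members, was described from a list of receptors and binding proteins. Of these, 8 had enough counts, 4 higher and 4 lower. The interval lay above equality for 2 and below it for 1, against 13.2% and 13.7% of all genes kept. At least 2-fold higher was 1 gene, against 3.18% of all genes kept. With 8 genes, nothing is read from these counts. Igf1r (1130 and 1508 counts, log2 ratio 0.03) and Insr (1495 and 1861, -0.07), the receptors of IGF1 and insulin, had intervals that included equality. Igfbp4, an IGF binding protein, was 2-fold higher with 56 and 148 counts, a log2 ratio of 1.01 (interval 0.57 to 1.49). The interval lay above equality for Igfbp3 also (2317 and 3250, 0.10) and below it for Igfbp5 (516 and 595, -0.18), whereas Igfbp7 (2810 and 3623, -0.02) included equality.

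Rtl1, Peg10 and Mcts2 were the lowest of the paternally expressed genes. Rtl1 and Peg10 derive from retrotransposons and are needed in the placenta. Rtl1 had 17 counts in control-F2 and 8 in AE-F2, a log2 ratio of -1.41 (interval -2.89 to -0.18), and Peg10 had 103 and 93, a log2 ratio of -0.53 (interval -0.95 to -0.11). Mcts2, a retrocopy of the translation factor gene Mcts1 that lies in an intron of H13, had 63 and 49 counts, a log2 ratio of -0.74 (interval -1.32 to -0.18). All 3 had fewer counts in the deeper library. Reads of Mcts2 and Mcts1 can be hard to tell apart, so that the count of Mcts2 is uncertain. Mcts1 had a mean count of 213 and a log2 ratio of 0.33, opposite in sign to Mcts2, and an exchange of reads between them was not tested.

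Peg3 and Rasgrf1 were lower with far more counts and thus smaller counting error. Peg3 had 22226 counts in control-F2 and 26097 in AE-F2, a log2 ratio of -0.15 (interval -0.18 to -0.13), or 0.90 of the control-F2 level. Rasgrf1, an exchange factor that activates Ras and is known in β-cells for its part in islet growth, had 3632 and 3979 counts, a log2 ratio of -0.25 (interval -0.32 to -0.19), or 0.84 of the control-F2 level. Both differences exceed counting error and are small. Usp29, a member of the deubiquitinase family that starts 147 bases from Peg3, had 163 and 229 counts and a log2 ratio of 0.11 (interval -0.19 to 0.41). Zim1, the maternally expressed zinc finger gene of the same domain, had 761 and 923 counts and a log2 ratio of -0.11 (interval -0.25 to 0.04).

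Sgce was the paternally expressed gene with an interval above equality. It encodes ε-sarcoglycan, had 113 counts in control-F2 and 207 in AE-F2, and had a log2 ratio of 0.49 (interval 0.15 to 0.83). Its start lies 99 bases from that of Peg10, and both are read from the paternal allele in opposite directions. Asb4, a maternally expressed gene of this domain with ankyrin repeats, had 32 and 50 counts and a log2 ratio of 0.26 (interval -0.41 to 0.95).

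In the Kcnq1 domain, the long noncoding RNA Kcnq1ot1 silences neighbouring genes on the paternal allele. Of its 8 members, 6 had enough counts, 5 of them higher in AE-F2 and 4 with intervals above equality. Such an interval was found for 13.2% of all genes kept (17.3% at means of 10 to 100 counts and 16% at 1000 or more). Lower values were found for 50.2% of all genes kept and 38.4% at means of 10 to 100 counts. Among the 5 higher genes, Slc22a18 was kept only through the AE-F2 library. Genes of 1 domain are not independent of each other, and with 6 genes nothing particular to the domain is shown. Cdkn1c, the cyclin-dependent kinase inhibitor p57 that holds β-cells out of the cell cycle, had 33 counts in control-F2 and 67 in AE-F2, a log2 ratio of 0.63 (interval 0.02 to 1.29). Kcnq1, a voltage-gated potassium channel subunit, had 28 and 64 counts, a log2 ratio of 0.80 (interval 0.15 to 1.51). The counts of both genes are low, and the interval of Cdkn1c starts just above equality. Of the exons of Cdkn1c, 30.7% lie opposite the antisense gene model Gm44732, which was not among the genes counted. Cd81, a tetraspanin of many cell types that is part of the B cell co-receptor, had 808 and 1159 counts, a log2 ratio of 0.14 (interval 0.01 to 0.27). Nap1l4 had 1337 and 1925 counts, a log2 ratio of 0.14 (interval 0.04 to 0.24). Slc22a18, a transporter, had 6 and 17 counts, and its log2 ratio of 1.07 had an interval (-0.29 to 2.75) that included equality. Tssc4 went the other way, with 1365 and 1672 counts and a log2 ratio of -0.09 (interval -0.19 to 0.01), and shares 11.9% of its exons with Trpm5 on the opposite strand. Ascl2 and Phlda2, both known from the placenta, were the 2 genes of the domain with no counts. Kcnq1ot1 was not analysed here. Imprinting of the domain members other than Cdkn1c is limited to some tissues.

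Kcnk9 and Trappc9 share a domain. Kcnk9, a two-pore domain potassium channel gene expressed mainly in brain, had 7 counts in control-F2 and 23 in AE-F2, a log2 ratio of 1.28 (interval 0.07 to 2.80). Trappc9, a subunit of a vesicle trafficking complex, had 1807 and 2306 counts and a log2 ratio of -0.03 (interval -0.12 to 0.06). The interval of Kcnk9 is wide, and its ratio rests on few counts.

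Gnas and Ddc were slightly higher in the AE-F2 library. Gnas had 22103 counts in control-F2 and 30134 in AE-F2, a log2 ratio of 0.06 (interval 0.04 to 0.09), and Ddc had 5471 and 7513, a log2 ratio of 0.07 (interval 0.02 to 0.12). Gnas yields several transcripts of different imprinting, which the gene count sums, and 8.8% of its exons lie opposite Nespas. With trends of the ratio on GC content and transcript length removed, the log2 ratio of Gnas was 0.13.

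The genes of the Snrpn domain, the counterpart of the Prader-Willi and Angelman region, had intervals that included equality wherever counts sufficed. Snrpn had 1143 and 1387 counts and a log2 ratio of -0.10 (interval -0.22 to 0.01). Ndn, a member of the MAGE family, had 884 and 1175 counts and a log2 ratio of 0.03 (interval -0.10 to 0.15). Ube3a, the maternally expressed ubiquitin ligase, had 1700 and 2257 counts and a log2 ratio of 0.03 (interval -0.07 to 0.12). For each of these 3 genes a change of 1.5-fold lies outside the interval. Magel2 and Mkrn3 were at or below 3 counts in both libraries. Snrpn shares exons with Snurf, which had 6.79 and 5.33 counts, and 8.7% of the exons of Ube3a lie opposite Snhg14.

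The remaining members had intervals that included equality. In the Nnat domain, Nnat had 414 and 537 counts (interval -0.20 to 0.18) and Blcap, in whose intron it lies, had 831 and 1022 (log2 ratio -0.08, interval -0.22 to 0.05). Mest, an enzyme of the hydrolase fold known as a growth-linked gene of mesoderm and fat, had 75.5 and 84.5 counts and a log2 ratio of -0.22 (interval -0.69 to 0.24). Copg2, a coat protein subunit of transport vesicles, had 873 and 1106 counts and a log2 ratio of -0.04 (interval -0.17 to 0.09). Mest and Copg2 overlap on opposite strands over 912 exonic bases, and the library kit as described does not mark strand, so reads from this overlap cannot be told apart. Slc38a4, with 5719 and 7304 counts, had a log2 ratio of -0.03 (interval -0.08 to 0.02). Impact, a regulator of the amino acid sensing kinase GCN2, had 1408 and 1780 counts (-0.05, interval -0.15 to 0.06). The inositol phosphatase Inpp5f had 1054 and 1418 (0.04, interval -0.07 to 0.16), and the zinc finger gene Zdbf2 had 1125 and 1531 (0.06, interval -0.05 to 0.17). For these 4 genes a change of 1.5-fold lies outside the interval.

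The ratio of 2 genes within a library does not depend on how libraries are scaled, and 13 pairs of neighbouring genes were compared in this way, with 95% exact intervals. Peg10 counts were 0.912 of those of Sgce in control-F2 and 0.449 in AE-F2, a log2 change of -1.02 (interval -1.57 to -0.47), although the starts of this pair are 99 bases apart. Rtl1 over Dlk1 went from 0.567 to 0.186 (log2 change -1.59, interval -3.20 to -0.09), and Mcts2 over H13 from 0.0176 to 0.0104 (-0.76, interval -1.33 to -0.19). Kcnk9 over Trappc9 went from 0.00387 to 0.00997 (1.36, interval 0.09 to 2.83). These were the 4 pairs whose intervals did not include 0, and each holds a gene of few counts. Rtl1 and Kcnk9 passed the minimum count only through their higher library. The pairs reuse the counts of the single genes, and no share over other gene pairs was computed. Nothing is read from this count of 4. Peg3 over Usp29, whose starts flank the printed stretch, was 136 in control-F2 and 114 in AE-F2 (log2 change -0.26, interval -0.56 to 0.04). Peg3 over Zim1 was 29.2 and 28.3 (-0.05, interval -0.19 to 0.10), so that these neighbours of opposite parental class kept their ratio within counting error. Nnat over Blcap (0.08), Ndn over Snrpn (0.13), Snrpn over Ube3a (-0.13), Grb10 over Ddc (-0.08), Mest over Copg2 (-0.18), Cdkn1c over Kcnq1 (-0.17) and Cdkn1c over Nap1l4 (0.50) also had intervals that included 0.

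**Figure D4:**
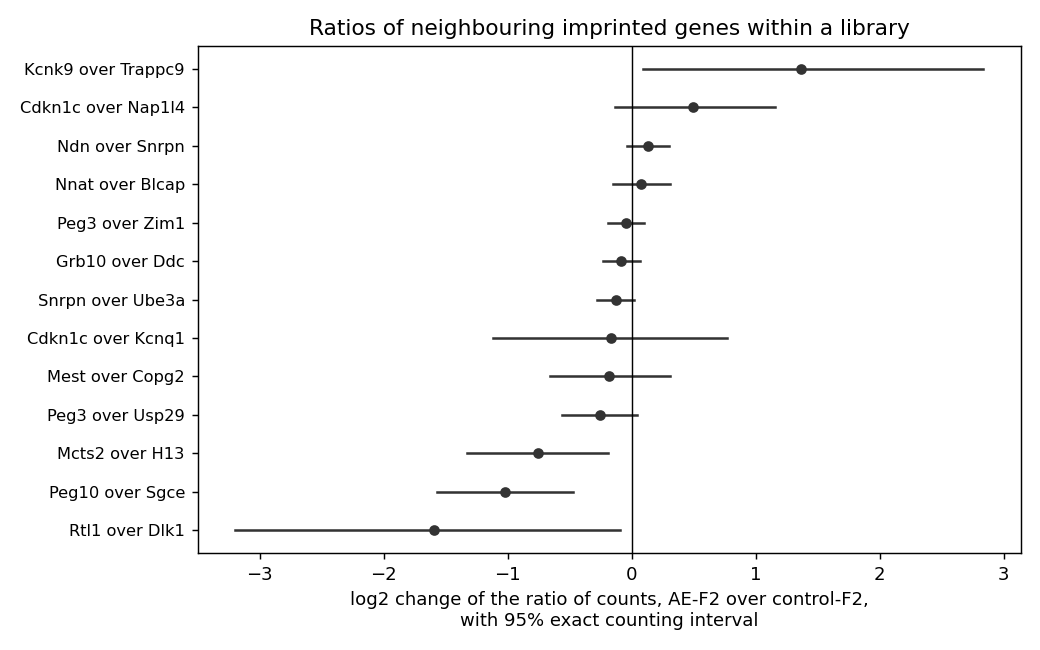
Log2 change, AE-F2 over control-F2, of the ratio of counts within a library for 13 pairs of neighbouring genes (points) with 95% exact counting intervals (lines). The intervals of Rtl1 over Dlk1, Peg10 over Sgce and Mcts2 over H13 lie below 0 and that of Kcnk9 over Trappc9 lies above 0, with 9 pairs spanning 0. Rtl1 and Kcnk9 passed the minimum count only through their higher library.

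Other imprinted genes were described from a second list of 34, of which 22 had a row and 14 enough counts. Their median log2 ratio was -0.06, with 5 higher and 9 lower and none past 2-fold. The interval lay above equality for Th, the rate-limiting enzyme of catecholamine synthesis (548 and 958 counts, log2 ratio 0.42, interval 0.27 to 0.58), and for Cobl (148 and 252, 0.38). It lay below equality for Jade1 (1403 and 1580, -0.21) and Ppp1r9a (934 and 1069, -0.19). These counts of 2 above and 2 below among 14 genes lie near the 13.2% and 13.7% of all genes kept. H13 (3583 and 4709, 0.01), Osbpl5 (827 and 1042, -0.05) and Pon2 (458 and 531, -0.17) had intervals that included equality. The noncoding RNAs of the domains, H19, Meg3, Rian, Mirg, Airn, Snhg14, Peg13 and Nespas, were not analysed here, nor were Zrsr1, Zim3 and Zfp264.

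The factors that keep imprints through cell division were described from a list of 13 genes, of which 10 had enough counts, 6 higher and 4 lower. The interval lay above equality for 2 and below it for 2, against 13.2% and 13.7% of all genes kept. The 2 genes past 2-fold both averaged 10 to 100 counts, where 13.1% of all genes were at least 2-fold higher. With 10 genes, nothing is read from these counts. Uhrf1, which brings DNMT1 to newly copied DNA, had 10 counts in control-F2 and 44 in AE-F2, a log2 ratio of 1.71 (interval 0.74 to 2.91). Hells, a chromatin remodeller of the same process, had 18 and 61.1 counts, a log2 ratio of 1.36 (interval 0.60 to 2.22). Both are also known as genes of dividing cells, and Dnmt1 itself had 640 and 862 counts and a log2 ratio of 0.05 (interval -0.10 to 0.20). The interval lay below equality for the methyltransferase gene Dnmt3a (2047 and 2438, -0.13) and for Trim28, the co-repressor recruited by ZFP57 (1890 and 2285, -0.11). Zfp445 (1231 and 1650, 0.04), Ctcf (1225 and 1680, 0.07) and Smchd1 (738 and 980, 0.03) included equality, and Zfp57 had 1 and 3 counts.

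The libraries also differed in markers of cells other than endocrine cells, which is given here because some members are known from such cells, as Cd81 is from B cells and Dlk1 and Mest are from mesenchyme. In bulk islets, fewer cells of a type and less RNA per cell cannot be told apart. The summed CPM of 6 B cell markers were 15.1 in control-F2 and 371 in AE-F2, led by Ighm (51 and 5376 counts), Igkc (9 and 1820) and Cd79a (178 and 391), with all 6 higher. Those of 10 mesenchyme markers were 332 and 400, with a median log2 ratio of 0.97. Of these markers, 9 were higher, 8 had intervals above equality and 4 were past 2-fold. The sum is carried by Rgs5 (2776 and 3835 counts), whose log2 ratio was 0.08, with Sparc (1300 and 1926 counts) and Col3a1 (282 and 727) next. Acta2 (200 and 210 counts) was lower, with a log2 ratio of -0.31 (interval -0.60 to -0.03). Over all genes kept, 13.2% had intervals above equality, 3.18% were at least 2-fold higher and 50.2% were lower. The 8 immune markers summed to 236 and 347 (6 of 8 higher). Of its 3 most abundant genes, Cd74 (2098 and 4024 counts) and H2-Aa (688 and 1398), of antigen presentation, were higher, and C1qa (592 and 647), a complement gene of macrophages, was lower with a log2 ratio of -0.26 (interval -0.42 to -0.09). The 10 acinar markers summed to 2106 and 1569, with all 9 that had enough counts lower, led by Ctrb1, Pnlip and Cela2a. None of the markers of these 4 lists was at 0 in either library. The 10 β-cell markers, all averaging at least 1000 counts, had a median log2 ratio of -0.10. Of them, 8 were lower with intervals below equality, and 2 (Ins1 and Iapp) were higher with intervals above it. Among all genes averaging at least 1000 counts, 56.8% were lower, and 25.5% had intervals below equality and 16% above it. The summed counts of the β-cell markers, carried by Ins2, Ins1 and Iapp, had a log2 ratio of 0.00. Most β-cell markers were lower, as Peg3 and Rasgrf1 were, and the part of this in the ratios of Peg3 and Rasgrf1 was not tested. Log2 ratios of the summed counts were 0.43 for 6 α-cell markers led by Gcg and Ttr, -0.01 for δ-cells (Sst, Rbp4 and Hhex), -0.02 for PP cells (Ppy), 0.20 for ducts (led by Krt7 and Spp1), -0.02 for endothelium (Kdr, Plvap and Flt1) and 0.11 for Schwann cells and nerve (led by Mbp). The part of these cells in the ratios of Cdkn1c, Kcnq1, Cd81, Sgce and the other members, and of Uhrf1 and Igfbp4 outside them, was not tested.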

How the data were processed

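Islet mRNA of F2 males was sequenced, and the authors deposited a table of estimated counts per gene for each library, without scaling to depth or length. The methods name HISAT2, whereas the submitters' processing notes list Bowtie2, RSEM and DESeq2, and the genome build and annotation of the counts are not given in the sources used here. Of the values, 8.56% in control-F2 and 9.28% in AE-F2 were not whole, and the deposited counts were rounded.

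Symbols were found in GENCODE M21 (GRCm38) for 21806 of 21899 identifiers, and it also gave exon lengths and overlaps. Groups followed the labels. Scaling used TMM in edgeR 4.0.16 (R 4.3.3). Log2 ratios used a pseudocount of 0.5 for genes averaging at least 10 counts, and 95% Clopper-Pearson intervals on the AE-F2 share came from scipy 1.17.1. Polymerase chain reaction copies are not independent molecules, so intervals and the limit of 3 counts for a gene at 0 cover counting error only. No model or p-value was computed, as 1 library per group was analysed. The script was tested on simulated counts. Alternatives were other scalings, with DESeq2 1.42.0 among them, minimum counts, pseudocounts, fold thresholds, thinned counts, removal of trends with GC content and length, other gene lengths and a narrower choice of imprinted genes.

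Named genes were all 42 members, the 6 most abundant of the other imprinted, imprint maintenance and IGF lists with any past 2-fold, and the 3 most abundant of each cell type list, some of which are not reported here. Cobl, Zfp57, Mcts1, Acta2 and the overlapping genes were named after their values were seen, and unlisted members of those lists are given as counts. The members and lists were chosen with earlier results of these data known. The authors' sperm methylation data were not analysed here.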

Additional observations from a re-analysis of the deposited data

How the results depend on the processing

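The count of imprinted genes at least 2-fold higher, 2 as reported, was 0 with a pseudocount of 5 counts, 0 with a minimum mean count of 50, 4 with no minimum and 4 at a threshold of 1.5-fold. The count at least 2-fold lower, 1 as reported, was 0 with a minimum mean count of 50 and 2 at 1.5-fold. Without members whose imprinting is limited to some tissues or transcripts, the maternal median was 0.26 over the 2 genes left (Zim1 and Cdkn1c), and the paternal minus maternal difference was -0.39. The median over all members kept was 0.01 when libraries were scaled by totals without the 10 most abundant genes and 0.01 with trends of GC content and length removed, against -0.01 as reported, and the maternal median was -0.01 with a minimum mean count of 50. The paternal median stayed below 0 in all alternatives run. Of 273 values of single-gene log2 ratios under alternatives, 272 moved by less than the counting interval, with Gnas (0.13) the exception. With the longest transcript as the length, 25 of 39 levels per kilobase moved past their counting interval. The mean level of the 2 libraries was then 351 for Gnas, 171 for Ddc and 149 for Peg3, so that Ddc stood above Peg3. Scaling moved the median of all genes by at most 0.02. No paired analysis was possible because 1 library per group was analysed and the replicate numbers differ. Ratios of genes below 100 counts are limited by depth, and the spread between animals is unknown.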
